A study of Mus musculus with 17 samples.

Results

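The genes described here encode the subunits, assembly chaperones and activators of the proteasome in innate immune cells of injured mouse muscle. They were chosen by symbol (Psma, Psmb, Psmc, Psmd, Psme, Psmf or Psmg and a number) and by reaching 5 on the log2 scale in 1 or more of 6 groups. Of 48 symbols of this form among 38087 genes, 46 met the threshold. Psma8, the alpha subunit of germ cells, was the nearest gene below it, with its highest log2 value of 4.57 in Ly6C low cells on day 2, and Psmb11, the catalytic subunit of the thymic cortex, was highest in neutrophils at 1.18. Just above it was Psmg3, an assembly chaperone, whose highest value was 7.03. The immunoproteasome genes Psmb8, Psmb9, Psmb10, Psme1 and Psme2 were set against the other 41.

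All groups were sorted from tibialis anterior muscles of DBA/2J mice, male and 3 months old, after an injection of cardiotoxin, a venom toxin that destroys muscle fibres. Poly-A RNA of 17 samples was sequenced, and no allele, transgene or further treatment is given in the labels. Neutrophils were taken on day 1 (2 samples), Ly6C high cells on days 1, 2 and 4, and Ly6C low cells on days 2 and 4 (3 samples in each of these 5 groups). Ly6C high and Ly6C low name the level of a surface protein by which macrophages of inflamed tissue are sorted. Nothing states whether samples of a group came from separate animals.

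The proteasome is the protease complex that takes apart proteins tagged with ubiquitin. Its core particle is a barrel of alpha and beta rings, in which the beta subunits Psmb5, Psmb6 and Psmb7 carry the active sites. The regulatory particle caps the barrel, and its base holds the ATPases that unfold substrates while its lid removes the ubiquitin. Interferon gamma is known to induce Psmb8, Psmb9 and Psmb10, which take the places of Psmb5, Psmb6 and Psmb7 in newly built particles and favour peptides that fit MHC class I molecules. Psme1 and Psme2 form PA28, an activator that docks on the same barrel.

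The measurement was the deposited log2 normalised read value, of which there is 1 per gene and group and none per sample. No test, standard deviation or p-value can therefore be given, and no difference can be set against the spread between samples. Differences are given on the log2 scale, on which 1 is 2-fold. The depth of single libraries cannot be computed from group values. Steps between low values were fitted with 1 read worth 0.412 to 1.03 normalised reads. The search had an upper limit set beforehand, so higher worths could not be found. The lowest value of any member, 6.02 for Psmg3 in neutrophils, was worth about 63.3 reads at the highest worth fitted, and fewer if a read was worth more. At that number counting error alone is 12.6%, and it would be larger if reads were counted in pairs. The column is read as an average of 2 libraries, so that 1 of them can lie lower. In sorted bulk samples, fewer cells of a type and less RNA per cell cannot be told apart.

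The neutrophil column stands apart from the others. Its S100a8 value, a granule protein gene of neutrophils, was 14.35 against 9.34 in Ly6C high cells of day 1, but its Csf1r value, the receptor gene that defines macrophages, was 13.27 against 13.52, and Ly6g, the usual neutrophil marker, was at only 3.48. Low values of 1 of its 2 libraries fell on even numbers of reads for 2195 genes and on odd numbers for 398. Processed pseudogenes were lower in it by a median of 2.27 (970 of 1031 lower). Markers of other cells were high in the day 4 columns. The 9 fibroblast markers summed to 48.9 to 1306 normalised reads up to day 2, and to 58788 and 14844 in Ly6C high and Ly6C low cells of day 4. Plasmacytoid dendritic cell markers (8 genes) summed to 5713 in Ly6C high cells of day 4 against 1598 to 2353 in the other groups, and endothelial markers (8 genes) to 5422 against 251 to 1016. T and NK cell markers (12 genes) summed to 569 and 513 on day 4 against 45.4 to 86.5 before, mostly in Cd4. B cell markers (5 genes) summed to 5.67 to 66.0 and conventional dendritic cell markers (8 genes) to 315 to 868 over the groups. No dendritic or endothelial marker was listed at 0 in any column, and of the fibroblast markers only Dpt was, in neutrophils. Ly6g was at 0 in all 5 macrophage columns, and up to 5 T and NK cell and up to 3 B cell markers were at 0 in a column. The 9 macrophage markers summed to 36130 in neutrophils and to 58217 to 102394 in the macrophage columns, and the 10 neutrophil markers to 86744 and to 1989 to 3960.

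Across the groups, most proteasome genes followed 1 course. The 41 members outside the immunoproteasome were high in Ly6C high cells of days 1 and 2 and in Ly6C low cells of day 2, and low in neutrophils and in both day 4 groups. Their median level was 9.43 in neutrophils, followed in Ly6C high cells by 10.20 on day 1, 10.06 on day 2 and 9.59 on day 4, and in Ly6C low cells by 10.08 on day 2 and 9.40 on day 4. The highest value of a gene lay in a day 1 or day 2 macrophage column for 40 of the 41, namely in Ly6C high cells of day 1 for 22, of day 2 for 6 and in Ly6C low cells of day 2 for 12. The lowest value lay in neutrophils for 19, in Ly6C low cells of day 4 for 18 and in Ly6C high cells of day 4 for 3. The shares of all genes with their highest or lowest value in these columns were not counted. Psme4 was the gene with its highest value in neutrophils, and Psmd5 the one with its lowest in Ly6C high cells of day 1.

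**Figure D1:**
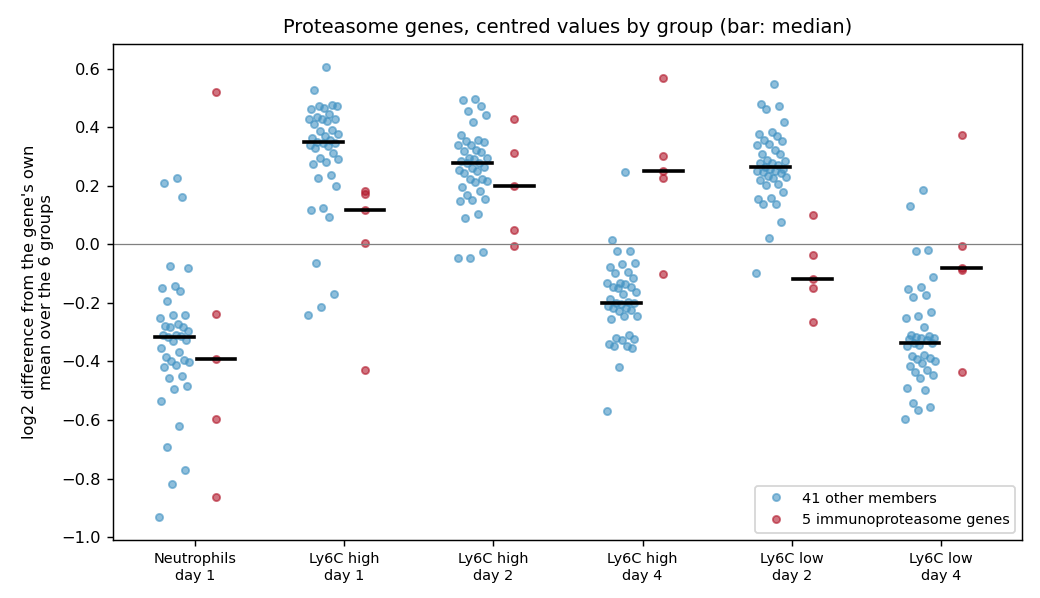
Each point is 1 proteasome gene in 1 group, as its log2 normalised reads minus that gene's mean over the 6 groups; blue points are the 41 other members, red points the 5 immunoproteasome genes, and bars are medians over genes, with no error because each group has 1 value per gene. Most blue points lie above 0 in the macrophage columns of days 1 and 2 and below 0 in neutrophils and on day 4, while the red median is above 0 in Ly6C high cells of day 4.

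From day 2 to day 4, every proteasome gene outside the immunoproteasome was lower in Ly6C high cells (39 of 41 after median-ratio rescaling), by a modest amount, and the immunoproteasome genes were not lower as a group. The median difference was -0.50 for the 41 genes, -0.01 for the 5 immunoproteasome genes and 0.01 over all 12348 genes compared. All 41 were below 0, where 49% of all genes were, and 20 of the 41 were lower by at least 0.5, where 11.4% of all genes were. After rescaling the columns so that their median ratios match, 13 were lower by at least 0.5. No member was 2-fold apart, where 16.3% of all genes were, so that the difference in the proteasome genes was broad and small. The fibroblast, dendritic and endothelial marker sums given above also differ between these columns, and their part in the result was not tested.

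The same contrast in Ly6C low cells gave a like picture. Its columns share no sample with the first, but the sample titles do not say whether both cell types of a day came from the same animals. It is therefore not taken as an independent repeat. Day 4 minus day 2 had a median of -0.60 over the 41 genes, 0.03 over the immunoproteasome genes and 0.03 over all 11824 genes compared. Of the 41, 40 were below 0 (48% of all genes) and 29 were lower by at least 0.5 (13.7% of all genes). Psme4, at 0.08, was the exception. No member was 2-fold apart, where 11.4% of all genes were. Here the plasmacytoid dendritic cell sum was 1598 on day 2 and 2143 on day 4 and the endothelial sum 327 and 455, while the fibroblast sum differed as in Ly6C high cells. The part of the fibroblast transcripts was not tested.

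**Figure D2:**
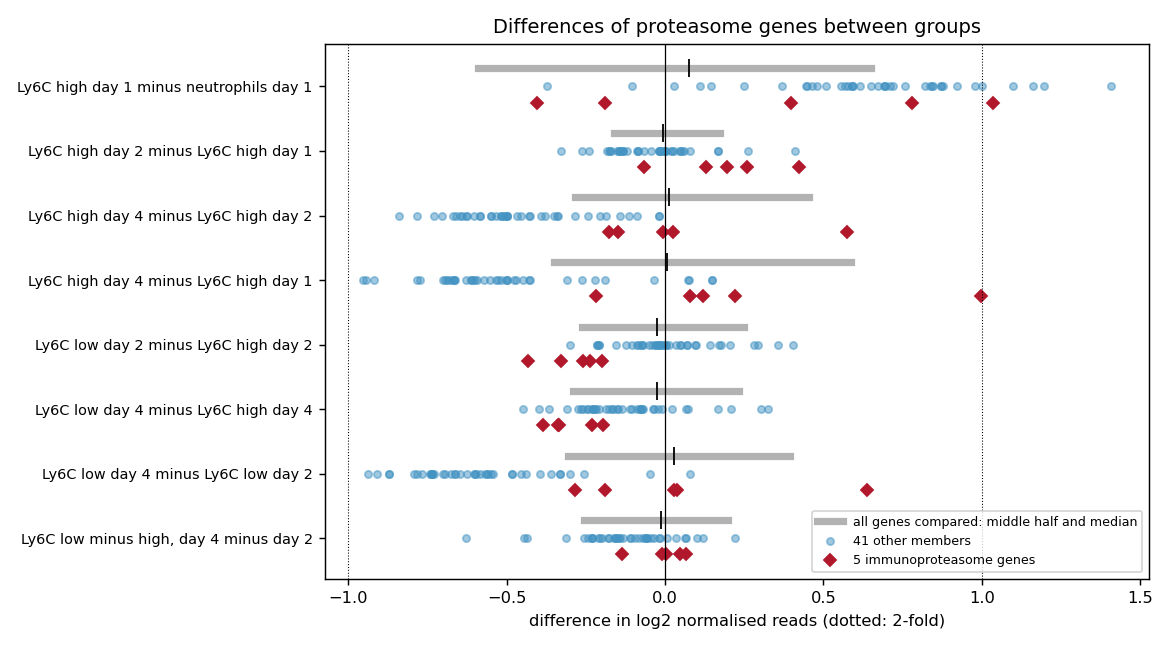
Horizontal axis, difference in log2 normalised reads for each of 8 comparisons (rows); blue points are the 41 other members, red diamonds the 5 immunoproteasome genes, and the grey bar with its tick spans the quartiles of all genes compared and marks their median. In both day 4 minus day 2 rows nearly all blue points lie left of 0 and left of the red diamonds, whereas in the low minus high rows of days 2 and 4 the red diamonds lie left of 0.

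The genes of the core particle differed together. In the alpha ring, which gates entry to the barrel, all 7 genes were lower on day 4 than on day 2 in both cell types. Their median was -0.51 in Ly6C high cells, between -0.63 for Psma6 and -0.28 for Psma5, and -0.54 in Ly6C low cells, between -0.77 and -0.40 for the same genes. Ranges over the 6 groups include the neutrophil column. Psma7 had the widest range of the ring, 1.16, and stood at 9.68 in neutrophils, followed in Ly6C high cells by 10.84 on day 1, 10.82 on day 2 and 10.31 on day 4, and in Ly6C low cells by 10.52 on day 2 and 10.04 on day 4. It was lowest in neutrophils and highest on days 1 and 2. Psma5 had the narrowest range, 0.61, with 7.52, 7.88, 7.74, 7.46, 7.67 and 7.27 in the same order of groups. These rankings of Psma7 and Psma5 hold for the genes' own rows only. With its near-identical copies summed, Psma5 stood at 7.74 in neutrophils and at 10.11 in Ly6C high cells of day 1, 2.37 apart. Its copies are processed pseudogenes, a class that was lower in the neutrophil column by a median of 2.27. Psma6 stood at 9.95, 10.87, 10.54, 9.92, 10.53 and 9.77, so that its Ly6C high value was 0.95 lower on day 4 than on day 1, the lowest of the 41 in that comparison.

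In the beta ring, where the proteolytic sites lie, the medians were -0.50 and -0.63 for Ly6C high and Ly6C low cells, and again all 7 genes were lower. Psmb5, the subunit with the chymotrypsin-like site, had the widest range of any member when copies were left out, 1.43. It stood at 7.54 in neutrophils, followed in Ly6C high cells by 8.95 on day 1, 8.97 on day 2 and 8.34 on day 4. In Ly6C low cells it stood at 8.96 on day 2 and 8.09 on day 4. It was lower by 0.63 and 0.87 on day 4, the lowest of the ring in both cell types. Psmb6, with the caspase-like site, had the narrowest range, 0.63, and stood at 9.51, 10.08, 10.10, 9.58, 10.10 and 9.47 in the same order. Psmb7, with the trypsin-like site, stood at 9.69, 10.36, 10.22, 9.77, 10.19 and 9.59. Psmb4, a structural member of the ring, was at 9.93, 11.12, 11.17, 10.62, 10.96 and 10.38, and Psmb1 differed least, by -0.20 and -0.36. The 3 catalytic genes therefore shared a peak on days 1 and 2 and differed in how low their neutrophil values were.

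The regulatory particle followed the core. The 6 ATPases, which form the ring that pulls substrates in, had medians of -0.60 and -0.63. Psmc5 was at 9.40 in neutrophils, followed in Ly6C high cells by 10.22 on day 1, 10.27 on day 2 and 9.43 on day 4, and in Ly6C low cells by 10.15 on day 2 and 9.21 on day 4. Its differences of -0.84 and -0.94 were the lowest of the 41 in each cell type, and Psmc3, with 9.95, 10.50, 10.50, 10.08, 10.54 and 10.10, had the narrowest range of the ring, 0.59. The 3 other base subunits, which hold ubiquitin receptors and scaffolds, had medians of -0.67 and -0.57. Among them the scaffold gene Psmd1 ranged over 0.99 with 10.57, 11.08, 10.94, 10.16, 11.15 and 10.49 in the same order, and the scaffold gene Psmd2 over 0.67 with 10.72, 11.31, 11.31, 10.64, 11.28 and 10.72. All 3 were lower on day 4 in both cell types.

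In the lid, all 8 genes were lower on day 4, with medians of -0.59 and -0.71. Psmd14, the protease that cuts ubiquitin from substrates, had the widest range, 1.08, and stood at 9.57 in neutrophils, followed in Ly6C high cells by 10.29 on day 1, 10.05 on day 2 and 9.34 on day 4, and in Ly6C low cells by 10.12 on day 2 and 9.21 on day 4. Its day 4 values were thus below its neutrophil value. Psmd12 had the narrowest range, 0.74, with 9.38, 9.96, 9.88, 9.28, 9.97 and 9.24 in the same order. Psmd3 stood at 9.81, 10.81, 10.76, 10.03, 10.72 and 9.93, and Psmd8 at 10.76, 10.87, 11.28, 10.94, 11.57 and 11.24. Psmd8 was the lid gene whose Ly6C high value was not lower on day 4 than on day 1, with a difference of 0.07.

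Genes that help to build the proteasome, rather than forming part of it, differed less in Ly6C high cells. The 7 assembly chaperones had a median of -0.19 from day 2 to day 4 in Ly6C high cells and of -0.45 in Ly6C low cells, and all 7 were below 0 in both. Psmg4 had the widest range, 1.10, with 6.18 in neutrophils, followed in Ly6C high cells by 7.27 on day 1, 7.26 on day 2 and 7.24 on day 4, and in Ly6C low cells by 7.17 on day 2 and 6.84 on day 4. It was low in neutrophils and differed by -0.02 between days 2 and 4 in Ly6C high cells. Psmd10, also known as gankyrin, had the narrowest range, 0.47, with 8.43, 8.46, 8.19, 8.01, 8.24 and 7.99 in the same order. Psmg1, which pairs with Psmg2 in building the alpha ring, was at 6.41, 6.88, 6.93, 6.68, 7.33 and 6.46, a difference of -0.24 in Ly6C high and of -0.87 in Ly6C low cells.

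The remaining activators and the inhibitor did not move together. Psme3, the nuclear relative of PA28, stood at 9.65 in neutrophils, followed in Ly6C high cells by 10.36 on day 1, 10.27 on day 2 and 9.69 on day 4, and in Ly6C low cells by 10.18 on day 2 and 9.44 on day 4, a course like that of the core particle. Psme4, which encodes the large activator PA200, had a range of only 0.41, the narrowest of all 46 members, with 10.18, 10.08, 9.91, 9.77, 9.86 and 9.94 in the same order. Psmf1, named as an inhibitor of the proteasome, was at 7.36, 7.51, 7.77, 7.65, 7.91 and 7.86, and its values were lowest in neutrophils and highest in Ly6C low cells.

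Between days 1 and 2, Ly6C high cells showed little difference in these genes. The 41 genes had a median of -0.02 and the immunoproteasome genes of 0.19, against -0.01 over 11232 genes. No member was 2-fold apart, where 2.51% of all genes were. Of the 41, 28 were below 0, where 51.2% of all genes were, but 20 and 21 after median-ratio and quantile normalization, so that no common direction can be given. The values ran from -0.33 for Psma6 to 0.41 for Psmd8. Against day 1 in place of day 2, Ly6C high cells of day 4 had a median of -0.55 over the 41 genes and of 0.12 over the immunoproteasome genes, against 0.01 over 12391 genes. There 37 of the 41 were below 0 (49.5% of all genes), 25 were lower by at least 0.5 (16% of all genes), and no member was 2-fold apart (21.6% of all genes). The comparisons of day 4 with days 1 and 2 share the day 4 column.

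The immunoproteasome genes took another course, and Psmb9 stood out among them. Psmb9, the subunit that replaces Psmb6, lies at 17:34181987-34187764 on the minus strand of GRCm38, head to head with Tap1. Its level stood at 7.96 in neutrophils, followed in Ly6C high cells by 7.77 on day 1, 8.20 on day 2 and 8.77 on day 4, and in Ly6C low cells by 7.93 on day 2 and 8.57 on day 4. Both day 4 values were above all 4 others. Its difference from day 2 to day 4 was 0.57 in Ly6C high and 0.64 in Ly6C low cells, and from day 1 to day 4 in Ly6C high cells 1.00 after rounding, just under 2-fold and so not counted (after median-ratio rescaling it was 1.09). Exons of Psmb9 share 212 bases with exons of Tap1 on the opposite strand, and as the sources used here do not state whether counting used the strand, reads of that stretch cannot be told apart.

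Psmb8, which replaces Psmb5, lies at 17:34197721-34201454 on the plus strand near Psmb9. It stood at 9.58 in neutrophils, followed in Ly6C high cells by 9.98 on day 1, 10.17 on day 2 and 10.20 on day 4, and in Ly6C low cells by 9.94 on day 2 and 9.97 on day 4. It was lowest in neutrophils, and its 5 macrophage values lay between 9.94 and 10.20. From day 2 to day 4 its differences were 0.03 and 0.03, while Psmb5 was lower by 0.63 and 0.87. Its exons share 498 bases with Gm20496 on the other strand, again with reads that cannot be told apart.

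Psmb10, which replaces Psmb7, lies at 8:105935735-105938444 on the minus strand. Its level was 8.69, 9.72, 9.98, 9.80, 9.65 and 9.46 in the same order of groups, with the lowest value in neutrophils. Day 4 was 0.18 below day 2 in Ly6C high and 0.19 below it in Ly6C low cells.

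Psme1 and Psme2, the PA28 genes, lie near each other on chromosome 14, at 14:55578123-55581529 on the plus strand and 14:55587441-55591113 on the minus strand. Psme1 stood at 9.39 in neutrophils, followed in Ly6C high cells by 10.16 on day 1, 10.29 on day 2 and 10.28 on day 4, and in Ly6C low cells by 9.86 on day 2 and 9.90 on day 4, with its highest values in Ly6C high cells of days 2 and 4. Psme2 stood at 7.92, 7.52, 7.45, 7.30, 7.25 and 6.97 in the same order, highest in neutrophils and lowest in Ly6C low cells of day 4. The row of Psme2 cannot be read alone. Psme2b-ps, whose transcript is 99.4% identical over the aligned stretch, held 85% of the reads of both rows together, with 9.19, 10.31, 10.22, 9.99, 9.98 and 9.66, and reads from such copies can be assigned to either. Summed with the copy, Psme2 stood at 9.69, 10.50, 10.42, 10.20, 10.18 and 9.87, lowest in neutrophils as Psme1 was, so that the direction of its neutrophil comparison depends on the copy.

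**Figure D3:**
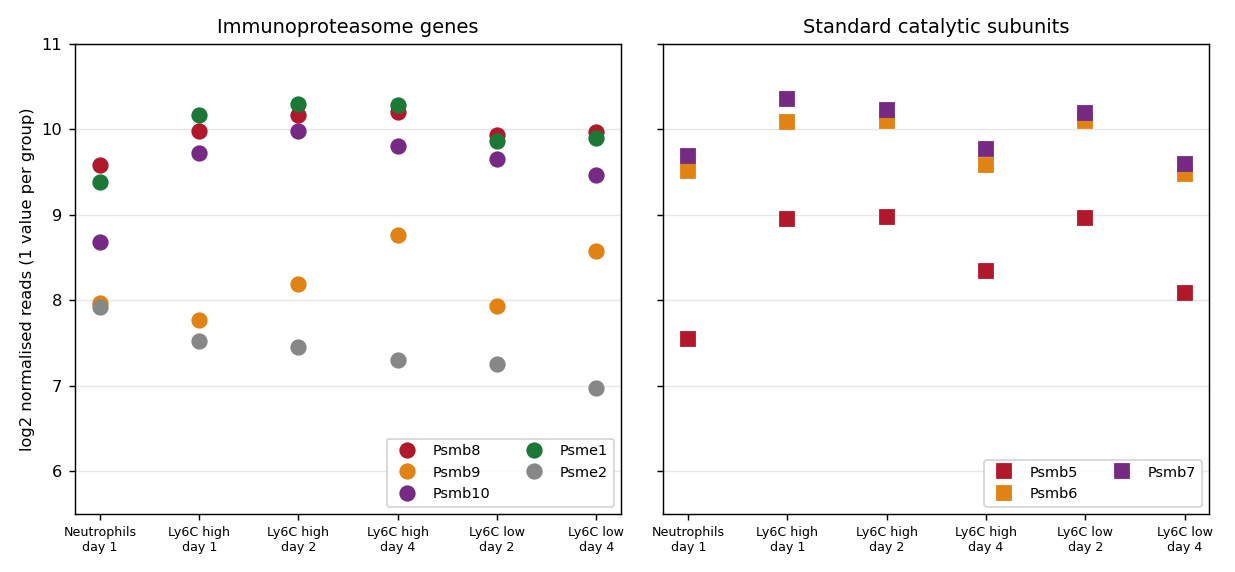
Vertical axis, log2 normalised reads (1 value per group, no error), for the 5 immunoproteasome genes at left and the 3 standard catalytic subunits at right, in the 6 groups. Psmb9 is highest in the day 4 columns, whereas Psmb5, Psmb6 and Psmb7 are lower on day 4 than on days 1 and 2; heights of different genes depend on their lengths and are not compared.

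Set against the other members, the immunoproteasome genes were offset upward with time. In Ly6C high cells, the median of the 5 minus the median of the 41 was 0.21 from day 1 to day 2, 0.49 from day 2 to day 4 and 0.67 from day 1 to day 4, and in Ly6C low cells it was 0.63 from day 2 to day 4. From day 2 to day 4, 36 of the 41 lay below all 5 immunoproteasome genes in Ly6C high cells and 38 of 41 in Ly6C low cells. The exceptions in Ly6C high cells were Psmd5, Psmd9, Psmg4, Psme4 and Psmf1, of which 3 are assembly chaperones and the others an activator and the inhibitor. Each count rests on the lowest of the 5, Psmb10 at -0.18 and Psme2 at -0.28. The lower quartiles of all genes were -0.29 and -0.31, and the share of all genes below the 5 was not counted. In Ly6C high cells the count was 30 with quantile normalization and 34 with copies summed, and in Ly6C low cells 37 with each. The day 4 columns of this comparison are those with the high marker sums of other cells given above, and the part of those cells in the offset was not tested.

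The balance between each immunoproteasome subunit and the one it replaces was computed per base of transcript, so that levels of both genes can be set side by side. Psmb8 exceeded Psmb5 in all 6 groups, by 1.18, 0.17, 0.34, 1.00, 0.12 and 1.03 in the same order. The excess was larger in neutrophils and on day 4 than in the other 3 columns. Reads of the Psmb5 copy Gm3375 are not in these values. The lengths are those of a single transcript per gene, 1628 bases for Psmb8 and 899 for Psmb5, and another choice would move the excesses. The side of the smaller ones is therefore uncertain. Psmb9 was below Psmb6 in all 6 groups, with differences of -2.31, -3.07, -2.67, -1.58, -2.92 and -1.66, least so on day 4. Psmb10 was below Psmb7 in all 6, with -1.18, -0.81, -0.42, -0.14, -0.72 and -0.31, and came nearest to it in Ly6C high cells of day 4.

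All 3 balances moved toward the immunoproteasome subunit between days 2 and 4 in both cell types. In Ly6C high cells they differed by 0.65 for Psmb8 and Psmb5, by 1.09 for Psmb9 and Psmb6 and by 0.28 for Psmb10 and Psmb7. In Ly6C low cells the differences were 0.90, 1.27 and 0.41. Length drops out of these changes. For Psmb8 and Psmb5 nearly all of the change lay in Psmb5, whereas for Psmb9 and Psmb6 both genes contributed, with Psmb9 0.57 higher and Psmb6 0.52 lower in Ly6C high cells, and for Psmb10 and Psmb7 both were lower and Psmb7 more so.

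**Figure D4:**
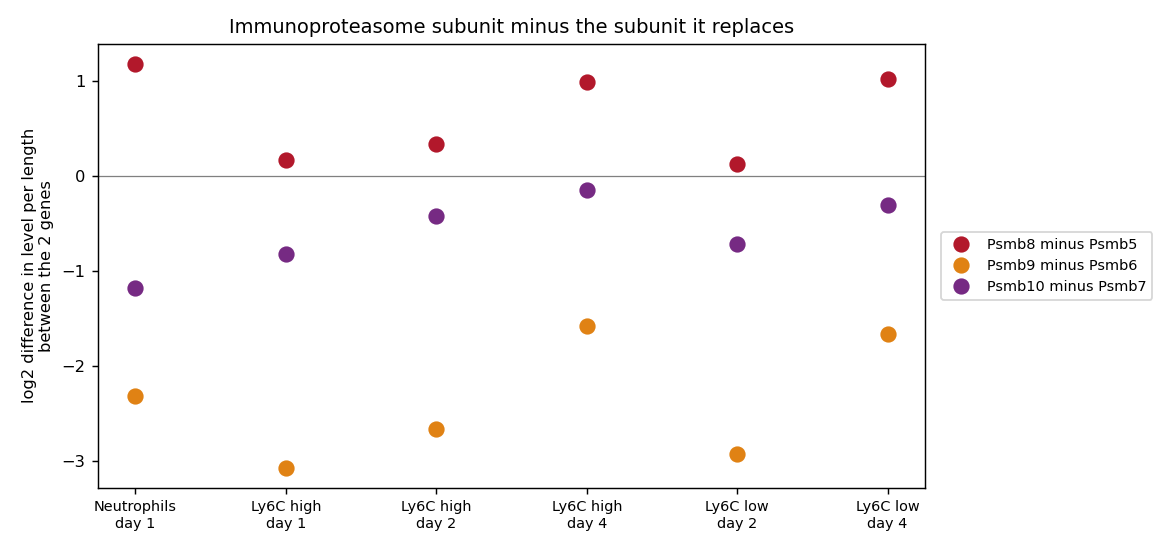
Vertical axis, log2 level per base of the immunoproteasome subunit minus that of the subunit it replaces, in each of the 6 groups; 1 point per pair of genes and group, with no error. All 3 pairs lie higher on day 4 than on day 2 in Ly6C high and in Ly6C low cells.

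At a given day, Ly6C low cells had less immunoproteasome RNA than Ly6C high cells. On day 2, all 5 genes were lower in Ly6C low cells, from -0.20 for Psme2 to -0.43 for Psme1, with a median of -0.26, against -0.02 for the 41 others and -0.03 over 11482 genes, of which 52.6% were below 0. On day 4 all 5 were lower again, from -0.20 for Psmb9 to -0.39 for Psme1, with a median of -0.34, against -0.15 for the others and -0.03 over 12438 genes, of which 52.8% were below 0. All 5 were below 0 on both days under both other normalizations as well. No member was 2-fold apart on either day, where 7.74% and 11.4% of all genes were. The plasmacytoid dendritic cell markers summed to 2353 in Ly6C high and 1598 in Ly6C low cells on day 2, and to 5713 and 2143 on day 4. Fibroblast and endothelial sums were also higher in Ly6C high cells on both days, at 1306 against 224 and 828 against 327 on day 2, and the part of these cells in the result was not tested.

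The other members had no common direction between the cell types on day 2. There 23 of 41 were below 0, but only 9 after quantile normalization, and the values ran from -0.30 for Psma7 to 0.40 for Psmg1. Of the 7 assembly chaperones, 6 were above 0, where 47.4% of all genes were. On day 4, 34 of the 41 were lower in Ly6C low cells (29 after quantile normalization), from -0.45 for Psmb3 to 0.33 for Psmd1. The difference between the day 4 and day 2 contrasts, low minus high, had a median of -0.13 for the 41 and of 0.00 for the immunoproteasome genes, against -0.01 over 12621 genes. Of the 41, 34 were below 0 (51.7% of all genes) and only Psmg1, at -0.63, was lower by at least 0.5, where 13.6% of all genes were. No member was 2-fold apart, where 7.06% of all genes were. This contrast is built from the same 4 columns as the 2 it compares.

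Against neutrophils, most proteasome genes were higher in Ly6C high cells of day 1. The median was 0.67 for the 41 other members, 0.40 for the immunoproteasome genes and 0.08 over 11890 genes. Of the 41, 39 were above 0 (53.3% of all genes) and 30 were higher by at least 0.5 (30.1% of all genes). At least 2-fold higher were 6 members, and none was 2-fold lower, where 16.6% of all genes were 2-fold higher and 16.1% lower, 32.7% in all. They were Psmb5 (1.41), Psmb4 (1.20), Psma7 (1.16), Psmg4 (1.10), Psmb10 (1.04) and Psmd3 (1.00). A count of 6 in 46 is below the share among all genes. Psmd5 was the lowest of the 41, at -0.37, and Psme4 was at -0.10.

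The immunoproteasome genes were split in this comparison. Psmb10 was 1.04 and Psme1 0.78 higher in Ly6C high cells of day 1, Psmb8 0.40 higher, Psmb9 0.19 lower and Psme2 0.40 lower, the last turning to 0.82 higher with its copy. Median-ratio rescaling lowered every difference by 0.15, with a median of 0.53 for the 41 and 3 members 2-fold apart (Psma7, Psmb4 and Psmb5). The comparison rests on the neutrophil column, which stands apart as described. In it, protein-coding genes with transcripts under 1500 bases had a median of 0.39 (1547 genes) and longer ones of -0.07 (8637 genes). The 20 other members under 1500 bases had a median of 0.83 and the 21 longer ones of 0.59, both above their class. The part of transcript length in the result was not tested.

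Near-identical copies in the genome were found for 8 members, 11 copies in all, of which 8 copies of 6 members are in the table used here. Psmb5 (copy Gm3375, 98.9% identical over 88.5% of the transcript) and Psmc1 have a copy outside it, as has Psmb3 beside its 2 others, and the reads of these 3 copies were not analysed here. In each of the 6 members with copies in the table, copies held at least 10% of the reads of gene and copies together. The share was 85.0% for Psme2, 74.9% for Psma5, 35.6% for Psma4, 33.3% for Psmb3, 28.3% for Psmd11 and 26.4% for Psmd2. All 8 copies in the table were lower in neutrophils than in Ly6C high cells of day 1, some by a wide margin. Gm8394, a processed pseudogene of Psma5, stood at 4.09, 8.97, 8.73, 8.39, 8.80 and 8.32 in the same order, and Gm6542, one of Psma4, at 5.88, 9.07, 8.96, 8.51, 8.91 and 8.24. With copies summed, Psma5 stood at 7.74, 10.11, 9.87, 9.55, 9.89 and 9.45. Psma4, Psma5 and Psmb3 joined the members that were 2-fold higher than in neutrophils, 9 in all, where 16.6% of all genes were. The copies of these genes in the table are processed pseudogenes. That class as a whole was lower in the neutrophil column by a median of 2.27 (970 of 1031 lower). The part of this class-wide difference in the additions was not tested. From day 2 to day 4, all 41 other members remained below 0 in Ly6C high cells with copies summed.

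**Figure D5:**
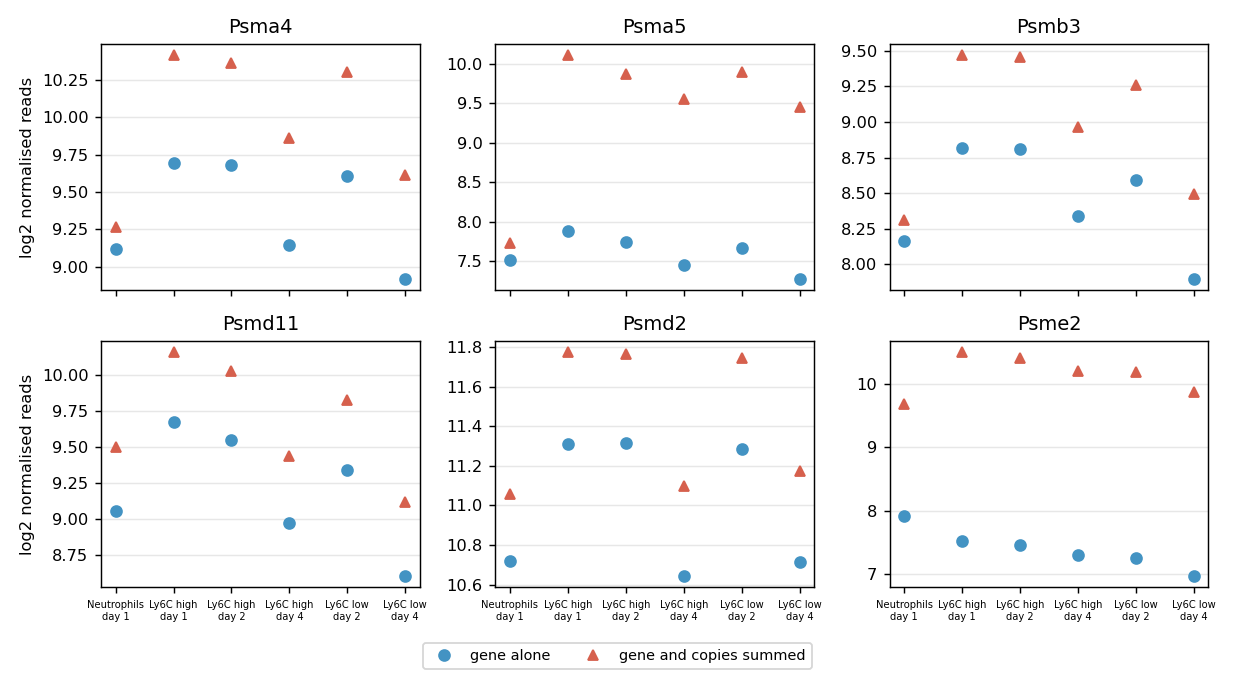
Vertical axis, log2 normalised reads of the gene alone (blue circles) and of the gene and its near-identical copies summed (red triangles) in the 6 groups, for the 6 members with at least 10% of the reads in copies; each panel has its own scale, and there is no error because each group has 1 value. The triangles rise further above the circles in the macrophage columns than in neutrophils in all 6 panels, by the least for Psmd11 and Psmd2.

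Levels of different members were compared per kilobase of transcript. The length of a single transcript per gene was used, and the ranks depend on that choice. Psma7, Psmd8 and Psmb4 had the highest means over the 6 groups, 10.50, 10.49 and 10.45 on the log2 scale. Psmd5, Psmf1 and Psmd9 had the lowest, 5.54, 5.75 and 6.30. Assembly chaperones filled 5 of the 7 lowest places, with Psmg2 at 6.69 and Psmg1 at 6.72. The immunoproteasome genes lay between, with Psme1 at 9.83, Psmb8 at 9.27, Psmb10 at 9.16, Psmb9 at 7.77 and Psme2, without its copy, at 7.46.

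Promoters were read from RefSeq (GRCm38.p6, 250 bases before to 50 after the start site), in which 39 of the 46 members have an entry. Psmb1, Psmb2, Psmb7, Psmc3, Psmd3, Psmd7 and Psmg2 have none. The motifs were searched on both strands and were chosen with the values known, and a match describes the letters of the window. A pair of GAAA with 2 bases between them, the core of the element bound by interferon regulatory factors, occurred in 12.8% of the 39 promoters and in 3.99% of 27025 genes. Its 5 members were Psmb3, Psmd4, Psmd9, Psme1 and Psmg4, of which Psme1 alone belongs to the immunoproteasome. TTCNNNGAA, the site of STAT factors, occurred in 3 (Psmb8, Psmd2 and Psmg1), or 7.69% against 9.55%. TGACNNNGC, the element of the NRF family, which is known to raise proteasome genes when proteasome activity is short, occurred in 6 (Psmb5, Psmb6, Psmc6, Psmd9, Psmd12 and Psme4), or 15.4% against 14%. CCGGAAG, an ETS site, occurred in 35.9% against 9.93%, that is in 14 of the 34 other members and in none of the 5 immunoproteasome genes.

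The stretches with matches are shown for the genes of the catalytic pairs and PA28, with the match in capitals. That of Psme1 is chr14:55578493-55578522 on the plus strand, with TTTCGCTTTC, the reverse complement of the interferon regulatory factor element, just after the start site and inside an exon, and that of Psmb8 is chr17:34198087-34198116 on the plus strand, with a STAT match upstream of the start site and inside an exon of another Psmb8 transcript. Psmb5 is shown at chr14:54618023-54618245 on the minus strand and Psmb6 at chr11:70525107-70525356 on the plus strand, each upstream of the start site and each with an NRF element near its downstream end.
Psme1: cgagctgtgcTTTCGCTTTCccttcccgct
Psmb8: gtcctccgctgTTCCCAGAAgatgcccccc
Psmb5: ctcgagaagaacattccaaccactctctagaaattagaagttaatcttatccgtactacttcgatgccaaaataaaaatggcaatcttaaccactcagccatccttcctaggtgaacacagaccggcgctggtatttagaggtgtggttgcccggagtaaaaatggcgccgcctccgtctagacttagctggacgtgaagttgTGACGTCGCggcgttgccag
Psmb6: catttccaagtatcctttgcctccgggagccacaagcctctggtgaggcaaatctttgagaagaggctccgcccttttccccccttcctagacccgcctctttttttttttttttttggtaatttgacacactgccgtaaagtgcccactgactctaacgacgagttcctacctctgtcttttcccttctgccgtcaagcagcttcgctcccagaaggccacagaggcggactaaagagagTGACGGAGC

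Genes that work with the proteasome but carry other symbols were also mostly lower on day 4 than on day 2. Of 11 such partners measured, 10 were below 0 from day 2 to day 4 in each cell type. The shares of all genes below 0 were 49% in Ly6C high and 48% in Ly6C low cells. The partners had medians of -0.36 and -0.39, and none was 2-fold apart, where 16.3% and 11.4% of all genes were. In Ly6C high cells of day 1 against neutrophils, 7 of the 11 were above 0 (53.3% of all genes), with a median of 0.39. Of the 11, Pomp and Shfm1 were at least 2-fold higher, where 16.6% of all genes were. None was 2-fold lower, where 16.1% of all genes were. Pomp, the chaperone that completes the barrel, stood at 9.52 in neutrophils, followed in Ly6C high cells by 10.53 on day 1, 10.48 on day 2 and 10.12 on day 4, and in Ly6C low cells by 10.47 on day 2 and 10.08 on day 4. Shfm1, the smallest lid subunit, stood at 10.30, 11.34, 11.25, 10.73, 11.08 and 10.52 in the same order, and Uchl5, a deubiquitinase of the base, at 8.57, 8.54, 8.52, 7.84, 9.03 and 8.15. Ubqln2 was the partner above 0 in both. The 8 subunits of the chaperonin CCT, another large ring complex, were also all below 0 from day 2 to day 4 in both cell types. Their medians were -0.29 in Ly6C high cells (49% of all genes below 0) and -0.52 in Ly6C low cells (48%).

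The list for the route by which NRF1 (Nfe2l1) is known to control proteasome genes was split. Its 6 genes include Nfe2l2, which encodes the related factor NRF2, and Keap1. From day 2 to day 4 in Ly6C high cells, 4 were above 0 and 2 below, where 49% of all genes were below 0. The median of the 6 was 0.23, and the counts give the list no common direction. Above 0 were Keap1 and Ngly1 (0.30 each), Ddi2 (0.26) and Nfe2l2 (0.19). Nfe2l1 itself was lower, by -0.15 in Ly6C high and -0.30 in Ly6C low cells, and Vcp was lower by -0.62 and -0.63. Nfe2l2 stood at 13.27, 12.78, 12.40, 12.59, 12.08 and 12.51 in the same order, and Ngly1, which removes sugars from NRF1, at 8.79, 7.96, 7.54, 7.84, 7.82 and 8.12.

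Genes that feed peptides to MHC class I were split from day 2 to day 4. Of 11 in Ly6C high cells, 7 were above 0 and 4 below, where 49% of all genes were below 0. The 11 had a median of 0.58, and 1 was 2-fold higher, where 14.3% of all genes were. In Ly6C low cells the median was 0.78 and 2 of 11 were 2-fold higher, where 9.23% of all genes were. Tap1, the peptide transporter gene next to Psmb9, stood at 9.24 in neutrophils, followed in Ly6C high cells by 8.51 on day 1, 8.94 on day 2 and 9.94 on day 4, and in Ly6C low cells by 8.57 on day 2 and 9.75 on day 4. Its lowest and highest columns were those of Psmb9. H2-K1, a class I heavy chain, stood at 12.31, 11.34, 11.21, 12.03, 10.98 and 12.21 in the same order. The members below 0 were Erap1, Pdia3, Calr and Canx, and Calr, a chaperone of the endoplasmic reticulum, stood at 13.35, 14.32, 14.20, 13.42, 14.04 and 13.26.

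Many targets of interferon differed by more than any proteasome gene. Of 17 genes of the interferon gamma route, 11 were 2-fold higher and none lower on day 4 than on day 2 in Ly6C high cells, where 14.3% of all genes were higher and 2% lower, with a median of 1.43. In Ly6C low cells 10 of 16 were higher, where 9.23% of all genes were, with a median of 1.31. Cxcl9, a chemokine induced by interferon gamma, stood at 1.49 in neutrophils, followed in Ly6C high cells by 1.94 on day 1, 3.55 on day 2 and 8.36 on day 4, and in Ly6C low cells by 1.88 on day 2 and 6.92 on day 4. Iigp1 was at 2.39, 3.37, 2.88, 8.62, 1.97 and 6.63 in the same order. Ifng itself was listed at 0 in neutrophils, in Ly6C high cells of day 1 and in Ly6C low cells of both days, and stood at 0.95 and 3.29 in Ly6C high cells of days 2 and 4. In the same 2 columns Cd8a, 1 of the 12 T and NK cell markers, stood at 3.13 and 6.02. Of those 12 markers, 1 reached 5 in Ly6C high cells of day 2 and 2 did in those of day 4. Which cells held the Ifng transcripts was not tested. In the type I interferon list, 11 of 18 were 2-fold higher in Ly6C high cells, where 14.3% of all genes were. All 18 were above 0, with a median of 1.14, where 49% of all genes were below 0. Ly6C low minus Ly6C high cells had medians of -0.54 and -0.49 for the interferon gamma route on days 2 and 4, and of -0.69 and -0.44 for the type I list. The 5 immunoproteasome genes were also below 0 on both days. Against neutrophils the interferon gamma route was lower in Ly6C high cells of day 1, with a median of -0.82 over 14 genes. Of the 14, 10 were below 0, where 53.3% of all genes were above 0. There 3 of the 5 immunoproteasome genes were above 0, or 4 with the copy of Psme2 summed, where 53.3% of all genes were.

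Likeness of profile was measured as the root mean square difference of centred log2 values over the 6 groups, among 8902 protein-coding genes with a value of at least 5 in all groups. Nearest to the mean immunoproteasome profile was 1110051M20Rik at 0.05, followed by Rbck1 at 0.06 and by Traf7, Nsun4 and Unc45a at 0.07. Mif4gd, Arpc1a, Hps4, Myo1g and Shisa5 completed the 10 nearest at 0.08. This list depends on the row of Psme2. With its copy summed, only Unc45a and Myo1g of the 10 remained among the nearest, at 0.04 and 0.06. Without the copy, the 5 genes themselves lay at 0.04 (Psmb8), 0.15 (Psme1), 0.27 (Psmb10), 0.30 (Psmb9) and 0.41 (Psme2) from their mean, so that it describes Psmb8 and Psme1 better than the rest. Nearest to the mean profile of the 41 were Med8 at 0.03, Srp68 at 0.04, and Rsl1d1, Shq1, Agpat6, Uqcrq and 2310011J03Rik at 0.05, a list added after the values were seen. Cops5, the catalytic subunit of the COP9 signalosome and a relative of Psmd14, was among the next, at 0.06, with 8.87, 9.47, 9.41, 9.06, 9.58 and 8.94 in the same order of groups.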

How the data were processed

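RNA sequencing values of 17 samples in 6 groups were used. Per the labels' protocols, RNA was extracted with Trizol and TruSeq poly-A libraries were read on a HiSeq instrument. The submitters' processing notes list Cufflinks 2.0.2, TopHat2 2.0.7 and mm10 without saying what each was used for. How values were normalized and whether strand was used is not given in the sources used here. Per gene and group, the authors deposited 1 log2 value of normalised reads. In each column many genes of very different transcript lengths share the same low value (1375 genes of 354 to 21116 bases in neutrophils). The values were therefore taken as not divided by length. Levels of different genes were compared per length of 1 coding GENCODE M21 transcript per gene. That was the longest of those annotated as principal.

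Differences between group values were computed in 8 comparisons for genes that reached 5 in a group compared. Genes at least 2-fold or at least 0.5 apart were counted. Sample columns are not analysed here, so the limma fit planned for them was not run. Near-identical copies (at least 95% identity over at least 50% of the transcript) were found with BLAST 2.17.0. Python 3.11.15, pandas 2.3.3 and numpy 2.4.6 were used, and the counting was tested on simulated data.

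The members and gene lists were chosen with earlier results of these data known. Named were the immunoproteasome genes and their counterparts, members 2-fold apart, the widest and narrowest range of each role, those nearest the threshold, up to 3 genes per list by range, and the 10 nearest profiles. Other members, named as the lowest or highest of a comparison or as exceptions, and other list genes were chosen after their values were seen. The alternatives were other filters, pseudocounts, normalizations and treatments of copies.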

Additional observations from a re-analysis of the deposited data

How the results depend on the processing

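Of 200 values (20 summaries of the proteasome genes, each under 10 alternatives), 190 moved by less than 0.1 on the log2 scale or, for counts, by no more than 1.5 times. Other filters on low values, pseudocounts of 0.1 and 5 and the summing of rows of a symbol moved none of the 20. Part of the 190 was fixed beforehand and is no sign of stability. No member symbol was on more than 1 row, and no member value was below 6.02, so a filter at 5 in 2 groups removes nothing. Median-ratio rescaling shifts all genes of a column equally and so cancels in a difference between 2 medians. Among the differences between the immunoproteasome median and that of the other members, the one against neutrophils changed sign. It was -0.27 as deposited, -0.11 without the 6 members with copies and 0.070 with copies summed, which turns Psme2, and the latter 2 alternatives were chosen after seeing the data. The other 7 kept their sign under all alternatives, but with quantile normalization the value was 0.79 for day 4 against day 1 in Ly6C high cells (0.67 as deposited) and -0.37 for Ly6C low against high cells on day 2 (-0.24 as deposited). Members 2-fold apart from neutrophils numbered 6 as deposited, 9 with copies summed, 3 with median-ratio rescaling and 2 with quantile normalization. For Ly6C high cells of day 4 against day 1 the count was 0 as deposited and 1 with each normalization (Psmb9 with median ratios, Psmg3 with quantiles), and for Ly6C low cells of day 4 against day 2 it was 2 with quantiles (Psmc5 and Psmg1). Other members lower by at least 0.5 on day 4 than on day 2 in Ly6C high cells numbered 20 as deposited and 13 with median ratios. The cause of these shifts was not tested. With quantiles, the differences of Psmb8 and Psme1 between days 4 and 2 in Ly6C low cells turned from 0.03 and 0.04 to -0.01 each. No paired analysis was possible because the columns hold 1 value per group, and for the same reason the replicate block and the leaving out of replicates were not run.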
